A study of Homo sapiens with 18 samples.

Results

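The genes that build, edit and carry heparan sulfate were followed in 3 human lung cancer cell lines before and after TGFβ-induced epithelial-mesenchymal transition (EMT). There were 41 such genes among the 19849 of the expression table, each found by its symbol and read by 1 probe set. They were brought together because HS3ST3B1, a heparan sulfate 3-O-sulfotransferase gene, was among the largest increases upon EMT. The other 40 were taken by their role in the pathway. The change of HS3ST3B1 is therefore given as a description with no test, and it is left out of every count of called genes.

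The lines were A549, HCC827 and NCI-H358, and each was profiled as parental cells and as mesenchymal cells, 6 groups with 3 Affymetrix arrays each. The mesenchymal groups of all lines had been kept in 2 ng/ml TGFβ, a cytokine that induces EMT, for 3 weeks by the labels. In the general methods A549 received it for 2 to 3 weeks and the other lines for 3 to 5 weeks. TGFβ was absent from the last day of culture, and all lines were grown in RPMI1640 with serum. The sources used here name no agent given to the parental cells in place of TGFβ. The 3 samples of a group are described as separate biological samples made together. The limma p values therefore measure spread within groups made on 1 occasion. That spread is pooled over the 6 groups and is not taken from the tested line alone.

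Heparan sulfate is a long sugar chain attached to a core protein on the cell surface or in the matrix. A xylose starts a short linker, exostosins extend the chain, and sulfotransferases then add sulfate at the amino group of glucosamine and at set oxygen positions, so that each cell type displays its own pattern of binding sites for growth factors, chemokines and proteases. Sulfatases and heparanase edit or cut finished chains outside the cell. Syndecans and glypicans hold the chains at the membrane, and perlecan and agrin hold them in the basement membrane.

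The markers of the 2 cell states moved with the labels. CDH1 (E-cadherin) fell, with log2 changes of -5.81, -2.95 and -3.94 in A549, HCC827 and NCI-H358 cells, and EPCAM fell with changes of -3.03, -2.69 and -2.92. CDH2 (N-cadherin) rose by 1.94, 3.26 and 2.04. VIM and ZEB1 rose more than 2-fold in HCC827 and NCI-H358 but changed by 0.79 each in A549, where parental ZEB1 already stood at 9.33. VIM group means lay between 3.55 and 6.37. Its probe set is of the Affymetrix class whose probes may also bind unrelated transcripts, and its specificity was not tested. ESRP1, an epithelial splicing regulator, fell in HCC827 and NCI-H358 and was near the low end of the scale in both A549 groups, at 3.53 and 3.57. Of 6 leukocyte and endothelial markers, group means lay between 2.83 and 5.76, and 1, CD14, fell in A549 by 1.36. RNA of the whole culture was measured, so fewer cells of a kind and less RNA per cell cannot be told apart. Array medians lay between 6.31 and 6.47 on the log2 scale, and the SD of log2 differences between arrays of 1 group was 0.163 to 0.282.

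A gene was called when the limma adjusted p, taken over all 19849 genes, was below 0.05 and the change exceeded 2-fold, that is 1 on the log2 scale. Of the 40 tested genes, 8 were called in A549, 7 higher and 1 lower in mesenchymal cells. Of all genes 8.02% were called there, 4.15% higher and 3.87% lower. In HCC827 there were 14, 9 higher and 5 lower, against 11.5% of all genes, 4.89% higher and 6.58% lower. In NCI-H358 there were 10, 5 higher and 5 lower, against 9.38% of all genes, 3.96% higher and 5.42% lower. At the study's stricter thresholds, 5-fold and an adjusted p below 1e-05, the counts were 2, 4 and 2, against 1.90%, 2.95% and 2.17% of all genes. With no limit on size they were 22, 23 and 26, against 43.4%, 45.8% and 41.4%. The median log2 change of the 40 genes was 0.094, 0.067 and 0.19 in the 3 lines, and that of all genes was -0.021, 0.0051 and 0.015. These shares are given as a description, since the same comparison led to the choice of the pathway.

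Of the 40 genes, 3 were called in the same direction in every line. HS3ST3A1 and GPC6 rose in all 3 lines (0.761% of all genes did) and HPSE fell in all 3 (0.907% of all genes). SDC2 was called in opposite directions in 2 lines, as were 0.937% of all genes. In all, 19 of the 40 were called in at least 1 line, compared with 19.4% of all genes, and 21 in none. At an adjusted p below 0.05 with no limit on size, 8 were higher in all 3 lines, where 4.31% of all genes were, and 2 were lower, where 6.14% were. The higher ones were B4GALT7, EXT1, EXT2, EXTL2, NDST1, HS3ST3A1, SDC1 and GPC6, and the lower ones HS3ST1 and HPSE.

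**Figure D1:**
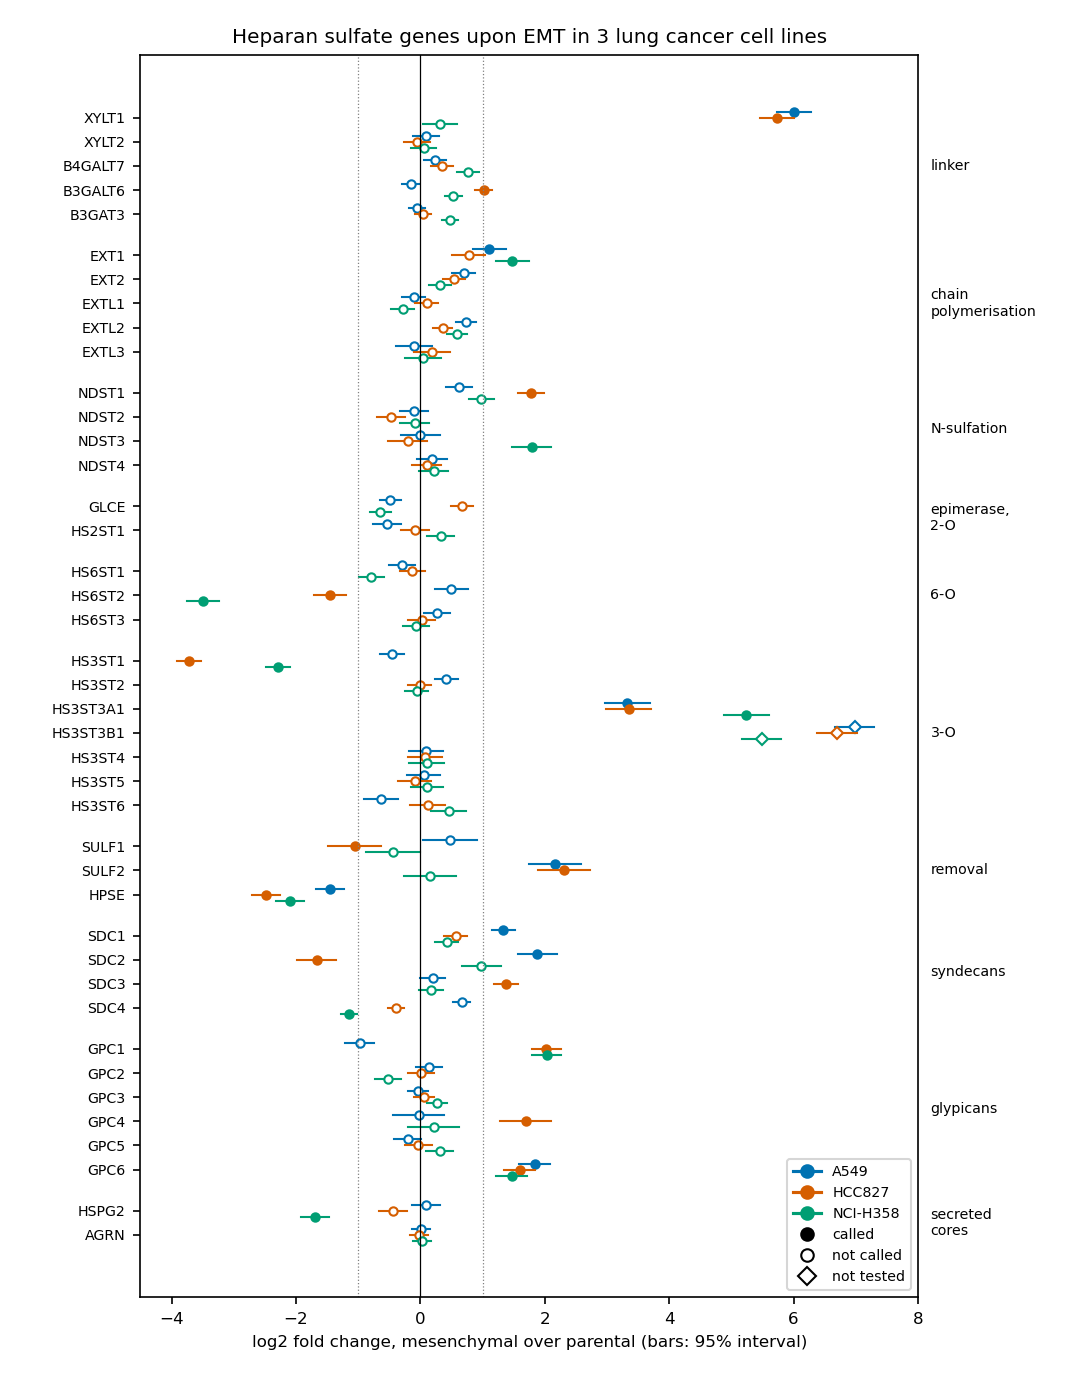
Log2 fold change of each of the 41 genes, mesenchymal over parental, grouped by role, with 1 point per cell line and its 95% interval from limma. Dotted lines mark a change of 2-fold, filled points were called, and the diamonds of HS3ST3B1 were not tested; the 3-O-sulfotransferase genes HS3ST3A1 and HS3ST3B1 and the xylosyltransferase gene XYLT1 lie farthest to the right, and HS3ST1 and HS6ST2 farthest to the left.

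The 3-O-sulfotransferases add the rarest sulfate of the chain, the mark that antithrombin and some viral and neural ligands recognise. HS3ST3B1 and HS3ST3A1 encode closely related enzymes of this family with the same preference for the chain, and HS3ST1 encodes the enzyme that makes the antithrombin-binding site. The first pair was more than 2-fold higher in the mesenchymal cells of all lines. HS3ST1 was lower in all lines, more than 2-fold in HCC827 and NCI-H358. HS3ST3B1 and HS3ST3A1, nearby genes of chromosome 17, were higher in every mesenchymal array than in any parental array of the same line. Such separation, in either direction, held for 52.4%, 51.2% and 51.6% of all genes in A549, HCC827 and NCI-H358. The 250 bases before the start of HS3ST3B1 and of HS3ST3A1 are shown because both were higher in all lines. They come from RefSeq on GRCh38.p14, chr17:14300831-14301080 on the plus strand and chr17:13601930-13602179 on the minus strand, 5′ to 3′ in the direction of the gene. Capitals mark matches, on either strand, to the SMAD motif CAGAC, the E-box CACCTG, the AP-1 motif TGANTCA, the CCAAT box, the GC box GGGCGG and the cAMP response element TGACGTCA, and neighbouring matches can run together or overlap.
HS3ST3B1: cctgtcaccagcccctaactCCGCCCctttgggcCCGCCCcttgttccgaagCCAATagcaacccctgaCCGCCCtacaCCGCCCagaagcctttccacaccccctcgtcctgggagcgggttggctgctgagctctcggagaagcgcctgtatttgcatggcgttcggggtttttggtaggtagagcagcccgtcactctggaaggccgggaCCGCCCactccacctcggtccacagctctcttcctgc
HS3ST3A1: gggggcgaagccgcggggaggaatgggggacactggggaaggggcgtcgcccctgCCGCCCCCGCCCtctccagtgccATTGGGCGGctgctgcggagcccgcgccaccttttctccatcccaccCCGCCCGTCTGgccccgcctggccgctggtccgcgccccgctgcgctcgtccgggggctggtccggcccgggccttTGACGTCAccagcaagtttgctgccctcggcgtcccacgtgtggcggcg

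Both windows were rich in G and C, 64% in HS3ST3B1 and 76% in HS3ST3A1, where the median of 35116 RefSeq windows of the same length was 58%. Both held GC boxes, 5 in HS3ST3B1 and 4 in HS3ST3A1, and at least 1 is present in 42.6% of all windows. Both held 1 CCAAT, present in 32% of all windows. HS3ST3A1 held 1 CAGAC, present in 38% of all windows, and 1 TGACGTCA, present in 1.65%, and HS3ST3B1 held neither. Neither held CACCTG or TGANTCA, which occur in 17.5% and 6.57% of all windows. CACCTG and TGANTCA apart, the motifs were chosen after the sequences were read, and a match is a match of letters alone. Of the 41 genes, 35 had a window from RefSeq, 45 windows in all. GC boxes were found in 77.8% of these, the windows of the pair included. The pair was thus like most of the pathway in holding them. The share was 26.7% for the CCAAT box, 28.9% for CAGAC, 15.6% for CACCTG, 4.44% for TGANTCA and 6.67% for TGACGTCA.

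HS3ST3B1 (Entrez gene 9953) stood at 4.10, 3.60 and 3.79 on the log2 scale in the parental A549 arrays and at 10.89, 10.84 and 10.71 in the mesenchymal ones. In HCC827 the parental arrays gave 3.35, 3.96 and 4.05 and the mesenchymal arrays 10.54, 10.40 and 10.51. In NCI-H358 they gave 3.74, 3.60 and 3.79, then 9.10, 9.28 and 9.21. All 9 parental arrays thus lay between 3.35 and 4.10, at the low end of the scale in every line, and all 9 mesenchymal arrays between 9.10 and 10.89. The log2 changes were 6.98, 6.70 and 5.49 in that order of lines, or 126-fold, 104-fold and 44.8-fold, with a standard error of 0.15 each. Parental means were at percentile 14.6, 14.1 and 12.5 of all genes, where a level is given whether or not the transcript is present, and no detection calls were used.

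HS3ST3A1 (Entrez gene 9955) stood at 3.48, 3.71 and 3.33 in parental A549 and at 7.03, 6.50 and 6.97 in mesenchymal A549. In HCC827 it was 4.11, 4.11 and 4.10, then 7.46, 7.47 and 7.44. In NCI-H358 it was 5.83, 5.94 and 5.10, then 10.80, 10.91 and 10.86. NCI-H358 was the highest of the lines in both states. The log2 increases in A549, HCC827 and NCI-H358 were 3.33, 3.35 and 5.24, which is 10-fold, 10.2-fold and 37.8-fold, with limma adjusted p of 6.53e-11, 4.34e-11 and 2.2e-13. By the test of the difference, NCI-H358 rose more than A549 by 1.91 (standard error 0.24, limma adjusted p = 6.57e-06) and more than HCC827 by 1.89 (adjusted p = 8.7e-06). Parental means of HS3ST3A1 were at percentile 10.5, 17.9 and 38.7 of all genes in A549, HCC827 and NCI-H358. The low end of the scale may thus limit the rises measured in A549 and HCC827. The order of the lines was not that of HS3ST3B1, whose change was smallest in NCI-H358. Whether either probe set also reads the related transcript was not tested.

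The genes around this pair gave other values. In the RefSeq order of protein-coding genes, COX10 and CDRT15 lie between HS3ST3A1 and HS3ST3B1, and neither was called in any line. Their log2 changes were -0.18, -0.19 and 0.29 for COX10 and 0.15, 0.05 and 0.02 for CDRT15 in A549, HCC827 and NCI-H358. PMP22, the next gene beyond HS3ST3B1, fell by 3.59 in A549 (limma adjusted p = 4.33e-14) and changed by -0.03 and 0.81 in the other lines.

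HS3ST1 went the opposite way. In parental HCC827 it stood at 8.97, 8.91 and 8.82 and in mesenchymal HCC827 at 5.01, 5.17 and 5.38, a fall of 3.71 (standard error 0.09, limma adjusted p = 3.43e-15) or 13.1-fold. In NCI-H358 it stood at 10.77, 10.62 and 10.81, then 8.54, 8.36 and 8.42, a fall of 2.29 (adjusted p = 1.74e-12) or 4.9-fold. In A549 it stood at 5.98, 6.08 and 5.96, then 5.57, 5.63 and 5.44, a change of -0.46 (adjusted p = 0.000483) that did not reach 2-fold. Mesenchymal HCC827 thus came down to a level below that of parental A549, while mesenchymal NCI-H358 stayed above both. The fall was larger in HCC827 than in NCI-H358, with a difference of 1.42 (limma adjusted p = 1.51e-07). The remaining 4 genes of the family, HS3ST2, HS3ST4, HS3ST5 and HS3ST6, had group means between 4.54 and 5.48 and were called in no line.

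**Figure D2:**
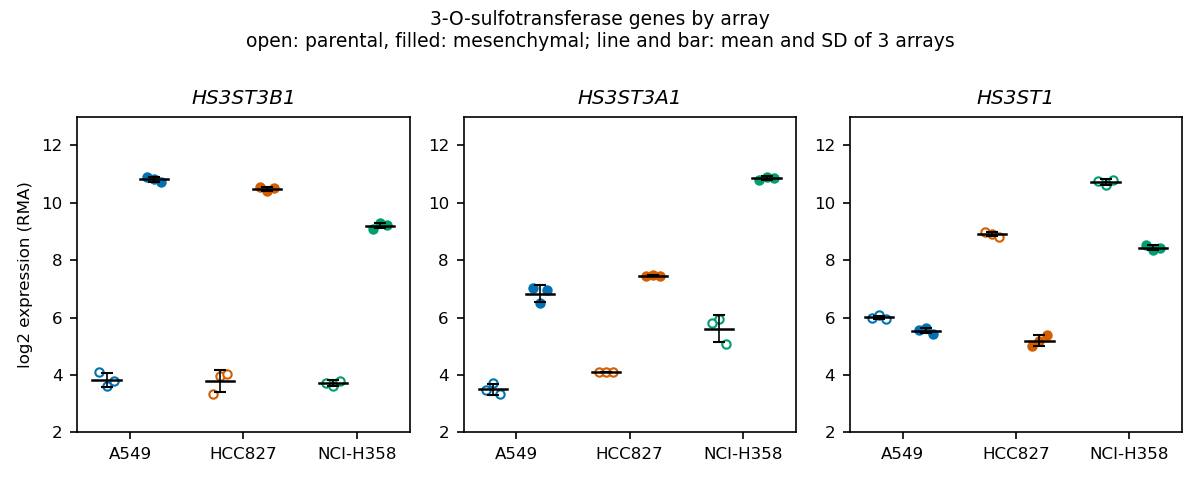
Log2 expression of 3 heparan sulfate 3-O-sulfotransferase genes in each of the 18 arrays, by cell line, with open points for parental and filled points for mesenchymal cells; the line and bar give the mean and SD of 3 arrays. HS3ST3B1 lies between 3.35 and 4.10 in all parental arrays and between 9.10 and 10.89 in all mesenchymal arrays, HS3ST3A1 is highest in mesenchymal NCI-H358 cells, and HS3ST1 falls in HCC827 and NCI-H358.

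The 6-O-sulfotransferases add the sulfate on which many growth factors depend. HS6ST2 was high in 2 of the parental lines and low in the other. It stood at 11.11, 11.02 and 11.06 in parental HCC827 and 9.54, 9.53 and 9.75 in mesenchymal HCC827, a fall of 1.46 (limma adjusted p = 2.66e-08). In NCI-H358 it stood at 10.38, 10.57 and 10.77, then 7.14, 7.09 and 7.02, a fall of 3.49 (standard error 0.12, adjusted p = 4.88e-13) or 11.2-fold. In A549 it was at 3.16, 3.18 and 2.92 in parental and 3.67, 3.81 and 3.28 in mesenchymal cells, near the low end of the scale in both. The parental level was 7.98 higher in HCC827 than in A549 (limma adjusted p = 5.53e-18) and 7.49 higher in NCI-H358 than in A549. HS6ST1 was not called, with changes of -0.29, -0.13 and -0.79, and HS6ST3 had group means from 4.38 to 4.65.

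The N-deacetylase/N-sulfotransferases place the first sulfates and thereby set where later enzymes act. NDST1, the widely expressed member, stood at 7.44, 7.82 and 7.81 in parental HCC827 and at 9.44, 9.36 and 9.59 in mesenchymal HCC827, a rise of 1.78 (limma adjusted p = 1.05e-10) or 3.43-fold. In A549 and NCI-H358 it was higher by 0.62 and 0.98 (adjusted p = 5.36e-05 and 2.66e-07), both under 2-fold, the latter just so. NDST3 was called in NCI-H358, from 3.79, 4.08 and 4.14 to 6.06, 5.47 and 5.87, a rise of 1.79 (adjusted p = 2.64e-08) that was 2.00 above its change in HCC827 (adjusted p = 8.95e-07). NDST2 and NDST4 were called nowhere.

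GLCE, the epimerase that turns glucuronic into iduronic acid, and HS2ST1, which then sulfates that iduronic acid, were called in no line. GLCE nonetheless took different directions, with changes of -0.48 and -0.64 in A549 and NCI-H358 and of 0.67 in HCC827 (limma adjusted p = 0.000125, 5.47e-06 and 2.7e-06). HCC827 differed from A549 by 1.15 (limma adjusted p = 4.21e-07), and NCI-H358 from HCC827 by -1.31 (adjusted p = 1.24e-07). HS2ST1 changed by -0.53, -0.09 and 0.32.

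Chain initiation showed the second large change. XYLT1 encodes a xylosyltransferase that puts the first sugar on the core protein, for heparan and chondroitin sulfate alike. It stood at 5.58, 5.76 and 5.53 in parental A549 and at 11.56, 11.62 and 11.70 in mesenchymal A549, a rise of 6.01 (standard error 0.13, limma adjusted p = 8.24e-16) or 64.2-fold. In HCC827 it went from 3.30, 3.46 and 3.29 to 8.93, 9.12 and 9.21, a rise of 5.74 (adjusted p = 1.51e-15) or 53.3-fold. In NCI-H358 it was at 3.47, 3.06 and 3.72 and then at 3.71, 3.62 and 3.87, so that the arrays overlapped, with a change of 0.32 (95% interval 0.04 to 0.59, adjusted p = 0.0609). The change in NCI-H358 minus that in A549 was -5.69 (limma adjusted p = 3.01e-13), and minus that in HCC827 it was -5.42 (adjusted p = 1.28e-12). The probe set of XYLT1 is of the Affymetrix class whose probes may also bind unrelated transcripts, the only one of that class among the 41, and its specificity was not tested.

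XYLT2, the second xylosyltransferase gene, lay between 3.31 and 3.53 in all group means, near the low end of the scale. Whether its probe set registers the transcript was not tested. Of the enzymes that finish the linker, B3GALT6, a galactosyltransferase, rose in HCC827 by 1.02 (limma adjusted p = 4.94e-10), just past 2-fold, and by 0.97 without mesenchymal replicate 3. It changed by -0.16 in A549 and 0.53 in NCI-H358, and HCC827 differed from A549 by 1.17 (adjusted p = 1.37e-08). B4GALT7 was higher in all lines by 0.23 to 0.76, and B3GAT3 changed by -0.05 to 0.48. Neither was called.

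EXT1 and EXT2 encode the paired subunits of the polymerase that lengthens the chain. EXT1 stood at 5.67, 5.71 and 5.85 in parental A549 and 6.75, 6.81 and 6.995 in mesenchymal A549, a rise of 1.11 (limma adjusted p = 1.26e-06). In NCI-H358 it stood at 5.87, 5.95 and 5.88, then 7.34, 7.36 and 7.43, a rise of 1.48 (adjusted p = 3.16e-08). In HCC827 it stood at 5.62, 5.66 and 5.35, then 6.57, 6.43 and 5.96, and the change of 0.78 (adjusted p = 5.1e-05) stayed under 2-fold. The arrays of the 2 states did not overlap in any line, which held for 52.4%, 51.2% and 51.6% of all genes in A549, HCC827 and NCI-H358. EXT2 was higher by 0.70, 0.54 and 0.31 and EXTL2 by 0.73, 0.36 and 0.59, without a call. EXTL1 and EXTL3 changed by at most 0.28 in either direction.

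**Figure D3:**
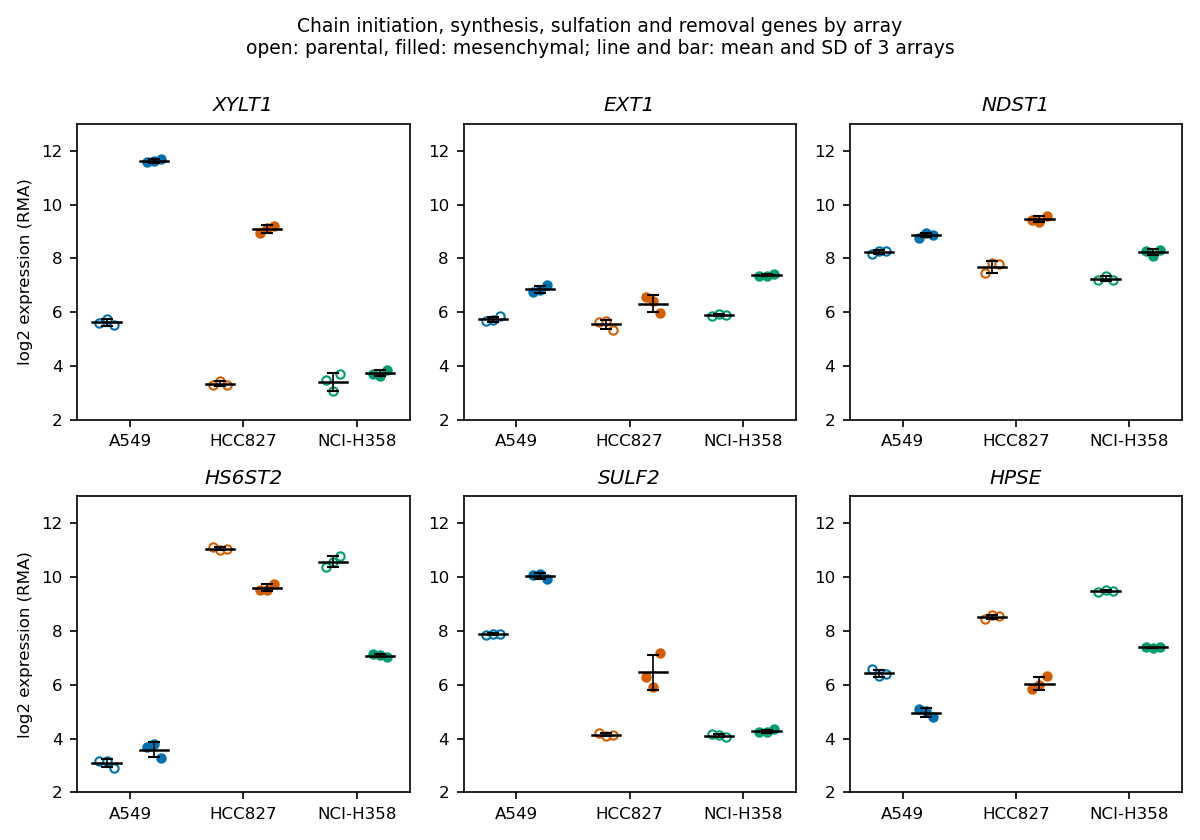
Log2 expression in each of the 18 arrays of XYLT1 (chain initiation), EXT1 (polymerisation), NDST1 (N-sulfation), HS6ST2 (6-O-sulfation), SULF2 (removal of 6-O-sulfate) and HPSE (chain cleavage), with open points for parental and filled points for mesenchymal cells, and the mean and SD of 3 arrays. XYLT1 and SULF2 rise in A549 and HCC827 and stay low in NCI-H358, HS6ST2 stays low in A549, and HPSE falls in every line.

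The genes of removal did not move together. HPSE encodes heparanase, the enzyme that cuts the chains. It stood at 6.57, 6.32 and 6.39 in parental A549 and 5.09, 5.03 and 4.79 in mesenchymal A549, a fall of 1.46 (limma adjusted p = 5.48e-09). In HCC827 it went from 8.45, 8.59 and 8.54 to 5.83, 5.98 and 6.31, a fall of 2.49 (adjusted p = 3.85e-12) or 5.6-fold. In NCI-H358 it went from 9.45, 9.51 and 9.49 to 7.41, 7.35 and 7.40, a fall of 2.10 (adjusted p = 4.33e-11). Each line ended well below its own start, and mesenchymal NCI-H358 still lay above parental A549. The fall was larger in HCC827 than in A549, with a difference of -1.03 (limma adjusted p = 2.53e-05).

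SULF1 and SULF2 encode the extracellular sulfatases that take 6-O-sulfate off finished chains. SULF2 rose in A549, from 7.84, 7.90 and 7.90 to 10.10, 10.13 and 9.91, by 2.17 (standard error 0.20, limma adjusted p = 9.93e-08). In HCC827 it rose from 4.21, 4.10 and 4.14 to 6.30, 5.91 and 7.17, by 2.31 (adjusted p = 3.12e-08), with the widest spread of any group among the 41 genes, an SD of 0.65. In NCI-H358 it stayed at 4.16, 4.13 and 4.06 and then 4.23, 4.24 and 4.34. That change of 0.15 differed from the change in A549 by -2.01 (limma adjusted p = 1.64e-05). SULF1 fell in HCC827, from 5.49, 4.82 and 4.72 to 3.71, 3.99 and 4.16, by 1.06 (adjusted p = 0.000331). The change was -0.81 without parental replicate 1 and -0.94 without mesenchymal replicate 1, under 2-fold in both, and -0.99 with arrays centred on their median. By the methods' t-test the adjusted p was 0.0528. In A549 and NCI-H358 SULF1 changed by 0.48 and -0.44, which were not called.

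Among core proteins the glypican gene GPC6, which encodes a membrane-anchored carrier, was the one called in all lines. It rose from 8.32, 8.33 and 8.37 to 10.06, 10.29 and 10.19 in A549, by 1.84 (limma adjusted p = 9.33e-10). It rose from 9.49, 9.01 and 9.04 to 10.66, 10.70 and 10.97 in HCC827, by 1.60 (adjusted p = 4.05e-09). In NCI-H358 it rose from 9.42, 9.63 and 9.68 to 11.07, 10.99 and 11.06, by 1.47 (adjusted p = 1.51e-08). No pair of lines was called for a difference in this change. GPC5, its neighbour on chromosome 13, lay between 2.71 and 3.09 in all group means.

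GPC1 depended on the line. In HCC827 it rose from 7.65, 7.63 and 7.56 to 9.54, 9.48 and 9.89, by 2.03 (limma adjusted p = 1.03e-10). The rise in NCI-H358 was from 7.43, 7.66 and 7.63 to 9.54, 9.53 and 9.76, by 2.03 (adjusted p = 1.22e-10). In A549 it started at 9.78, 9.64 and 9.46 and ended at 8.76, 8.66 and 8.52, a change of -0.98 (adjusted p = 1.54e-06) just short of 2-fold. Parental A549 was therefore about as high as the mesenchymal cells of the other lines. The change in HCC827 was 3.00 above that in A549 (limma adjusted p = 1.24e-10). GPC4 rose in HCC827, from 3.96, 3.71 and 4.03 to 5.39, 5.61 and 5.76, by 1.69 (adjusted p = 1.07e-06). It was higher in NCI-H358 from the start, at 7.65 to 8.52 in parental arrays, with a change of 0.21 there and -0.03 in A549. GPC2 and GPC3 were called in no line.

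All 4 syndecan genes were called in at least 1 line, where 19.4% of all genes were, and none in more than 2 lines. SDC2 rose in A549, from 3.09, 3.18 and 3.66 to 5.22, 5.22 and 5.13, by 1.88 (limma adjusted p = 1.26e-08). It fell in HCC827, from 5.06, 5.45 and 5.57 to 3.56, 3.57 and 3.96, by 1.67 (adjusted p = 4.2e-08). In NCI-H358 it stood far higher in both states, at 9.01, 9.07 and 9.19 and then 10.11, 10.02 and 10.08, a change of 0.98 (adjusted p = 2.85e-05). The change in HCC827 minus that in A549 was -3.55 (limma adjusted p = 4.46e-10). The SDC2 means of parental A549 and mesenchymal HCC827 were 3.31 and 3.69, near the low end of the scale. Both changes, in A549 and in HCC827, may thus be limited in size. SDC1, the main epithelial syndecan, rose by 1.33 in A549 (adjusted p = 1.38e-09), and was higher by 0.57 and 0.42 in HCC827 and NCI-H358.

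SDC3 rose in HCC827, from 6.95, 6.94 and 7.03 to 8.43, 8.10 and 8.53, by 1.38 (limma adjusted p = 1.4e-09), with changes of 0.20 and 0.17 in the other lines. SDC4, a focal adhesion syndecan, fell in NCI-H358, from 11.47, 11.54 and 11.60 to 10.37, 10.37 and 10.43, by 1.15 (adjusted p = 7.9e-11). It changed by 0.66 in A549 and -0.39 in HCC827, and the difference between NCI-H358 and A549 was -1.81 (adjusted p = 3.54e-11). All mesenchymal arrays of SDC4 lay between 10.10 and 11.46, where parental arrays ran from 9.32 to 11.82.

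The secreted cores HSPG2 (perlecan) and AGRN (agrin) differed from each other. HSPG2 fell in NCI-H358, from 9.18, 9.18 and 9.19 to 7.33, 7.32 and 7.83, by 1.69 (limma adjusted p = 7.11e-10), and changed by 0.09 in A549 and -0.44 in HCC827. AGRN changed by 0.01, -0.02 and 0.03 (95% intervals -0.13 to 0.16, -0.17 to 0.12 and -0.12 to 0.17), so that its largest change was the smallest among the 40 tested genes.

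**Figure D4:**
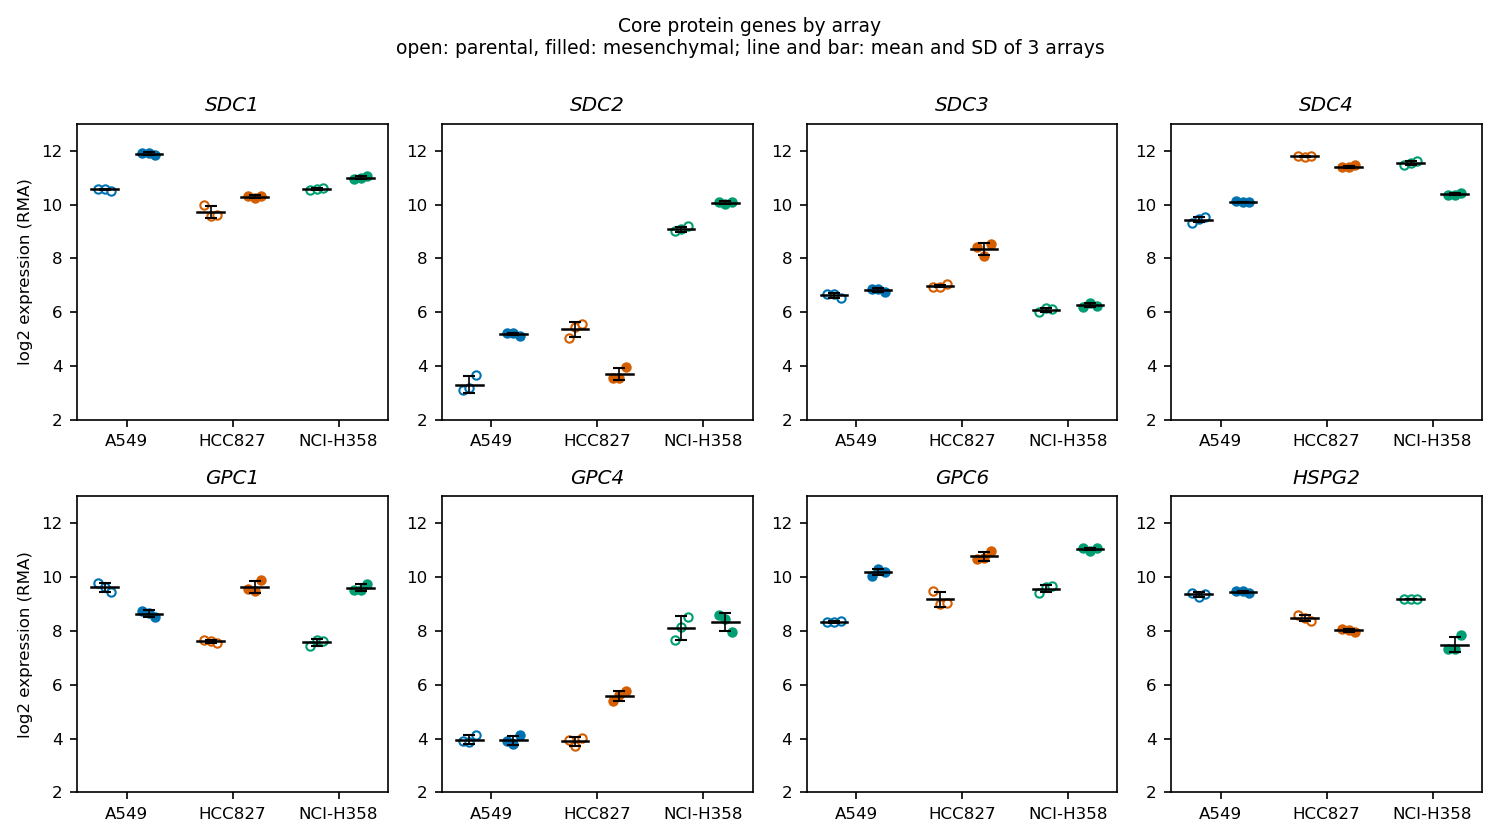
Log2 expression of 8 core protein genes in each of the 18 arrays, by cell line, with open points for parental and filled points for mesenchymal cells, and the mean and SD of 3 arrays. GPC6 rises in all 3 lines, GPC1 rises in HCC827 and NCI-H358, SDC2 rises in A549 and falls in HCC827, and SDC4 and HSPG2 fall in NCI-H358.

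The lines differed in these genes before TGFβ was given. Between parental HCC827 and A549 cells, 11 of the 40 genes differed by more than 2-fold at a limma adjusted p below 0.05, where 18.8% of all genes did. Between parental NCI-H358 and A549 there were 13, against 20.4% of all genes, and between NCI-H358 and HCC827 5, against 15.2%. At 5-fold and an adjusted p below 1e-05 these counts were 4, 6 and 2, against 5.15%, 6.19% and 3.32%, and with no limit on size 26, 28 and 25, against 57.1%, 57.9% and 52.6%. Parental A549 was apart from both other lines in 9 genes, and 11.3% of all genes met the same condition. It was higher in XYLT1, where HCC827 and NCI-H358 differed from it by -2.27 and -2.21, in SULF2, by -3.73 and -3.77, and in GPC1, by -2.01 and -2.05. It was lower in HS6ST2, HS3ST1, SULF1, HPSE, SDC2 and SDC4, with HPSE 2.10 higher in HCC827 and 3.06 higher in NCI-H358 than in A549. NCI-H358 stood out in SDC2, 3.73 above HCC827 (limma adjusted p = 9.54e-13), and in GPC4, 4.21 above HCC827 (adjusted p = 6.98e-12).

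The size of the change upon EMT was tested between lines as well. It differed by more than 2-fold in 12 of the 40 genes between A549 and HCC827, where 13.4% of all genes differed, in 10 between A549 and NCI-H358, against 12.7%, and in 11 between HCC827 and NCI-H358, against 11.0%. HS6ST2 and HS3ST1 differed in all 3 of these comparisons. The share of all genes that did so is not given here. In parental A549 the mean of HS6ST2 was 3.09, near the low end of the scale, where a fall could hardly be seen. At 5-fold and an adjusted p below 1e-05 the counts were 3, 3 and 2, against 2.92%, 3.01% and 2.06%, and with no limit on size 18, 25 and 22, against 42.2%, 42.8% and 37.9%. Each line has parental arrays of its own, but every pair of these comparisons shares 1 line.

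The other genes of the pathway were described in 4 lists by role. The list for supply of sugar and sulfate precursors held 11 genes, among them FAM20B and PXYLP1, which act on the linker instead. Of the 11, 0 were called in A549, 4 in HCC827 (2 higher and 2 lower) and 2 in NCI-H358 (both higher). Of all genes 8.02%, 11.5% and 9.38% were called. SLC26A2, a sulfate transporter of the plasma membrane named like the other genes of this list after its values were seen, rose by 2.10 in HCC827 and 2.67 in NCI-H358 (limma adjusted p = 8.2e-13 and 6.25e-14), and changed by 0.21 in A549, where its parental level was 10.38. PAPSS2, which makes the activated sulfate that all sulfotransferases use, rose by 1.66 in NCI-H358 (limma adjusted p = 1.33e-12), and its changes in A549 and HCC827 were 0.25 and -0.53. Of the nucleotide sugar transporters, SLC35D1 rose by 1.61 in HCC827 (limma adjusted p = 2.6e-10) and SLC35D2 fell by 1.48 there (adjusted p = 2.11e-11). SLC35B3, a transporter of activated sulfate, fell by 1.14 in HCC827 (limma adjusted p = 2.59e-06). In A549 9 of the 11 passed an adjusted p below 0.05 at a smaller size by the same limma fit, where 43.4% of all genes passed at any size. Of 8 genes of lysosomal breakdown, none was called in any line, and 3, 3 and 4 passed an adjusted p below 0.05 at a smaller size, near the 43.4%, 45.8% and 41.4% of all genes that passed at any size, with medians of -0.0059, -0.023 and -0.011.

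Chondroitin and dermatan sulfate share the linker with heparan sulfate and part from it at the next sugar. Of 16 genes of that branch, 5 were called in A549, 4 of them higher, 5 in HCC827, 4 of them higher, and 6 in NCI-H358, all higher. Of all genes 8.02%, 11.5% and 9.38% were called, and 4.15%, 4.89% and 3.96% were called higher. The median log2 change was 0.62, 0.64 and 0.60, where that of all genes was -0.021, 0.0051 and 0.015. CHST11, a chondroitin 4-O-sulfotransferase, rose in all lines, from a parental mean of 8.41, 8.14 and 7.12 to 10.59, 9.75 and 9.12 in A549, HCC827 and NCI-H358. The changes were 2.18, 1.61 and 2.00 (limma adjusted p = 5.4e-13, 2.1e-11 and 1.68e-12). CSGALNACT1, which starts the chondroitin chain and was named after its values were seen, fell in A549 and HCC827, with changes of -2.76 and -1.52, but rose by 2.07 in NCI-H358. Of 7 proteins that carry heparan sulfate part of the time, 2 were called in A549, 1 in HCC827 and none in NCI-H358, against 8.02%, 11.5% and 9.38% of all genes. In NCI-H358 5 of the 7 passed an adjusted p below 0.05 at a smaller size, where 41.4% of all genes passed at any size. SPOCK1, a secreted proteoglycan, rose by 2.61 in A549 and 3.88 in HCC827, and TGFBR3, the TGFβ co-receptor betaglycan, fell by 3.22 in A549. SPOCK1 changed by 0.42 in NCI-H358. In HCC827 and NCI-H358 TGFBR3 changed by 0.93 and 0.53, without overlap between the states. The states did not overlap in 51.2% and 51.6% of all genes in these 2 lines. Both SPOCK1 and TGFBR3 were named after their values were seen.

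**Figure D5:**
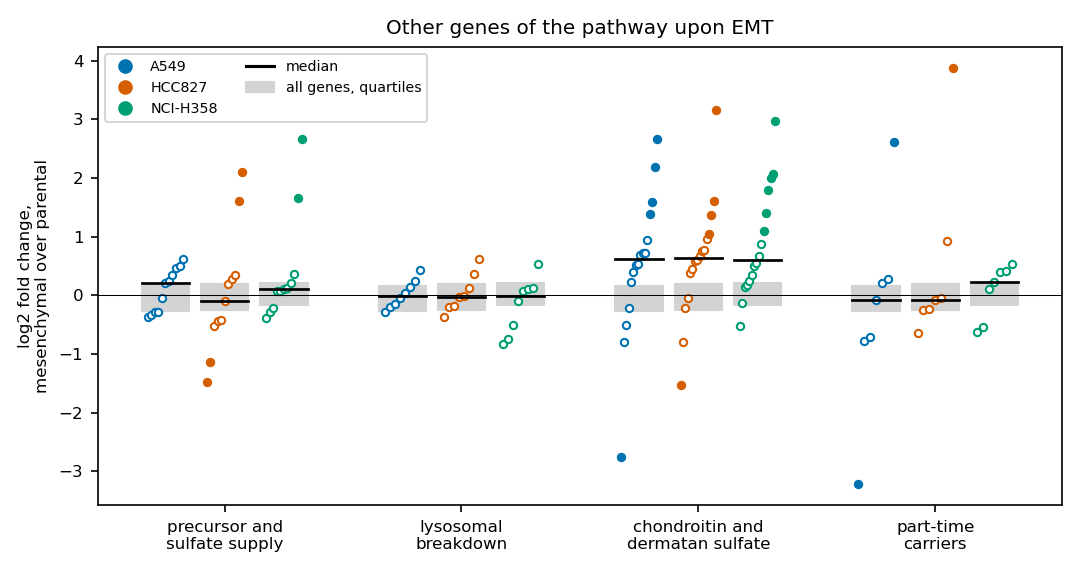
Log2 fold change, mesenchymal over parental, of the genes of 4 other lists of the pathway, with 1 point per gene, filled where called, and 3 columns per list for A549, HCC827 and NCI-H358. Black lines are list medians and grey boxes the quartiles of all 19849 genes; the medians of the chondroitin and dermatan sulfate genes are 0.62, 0.64 and 0.60, and those of the lysosomal genes lie near 0.

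The 21 genes called in no line changed by -0.79 to 0.76 on the log2 scale, and 26 of their 63 changes passed an adjusted p below 0.05 by limma. Of all genes, called ones included, 43.4%, 45.8% and 41.4% passed in the 3 lines. Of the 40 tested genes, 34 stood above 5 on the log2 scale in at least 3 arrays. The other 6 were XYLT2, NDST4, HS6ST3, HS3ST4, HS3ST5 and GPC5, none of which was called.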

How the data were processed

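The deposited values are log2 expression levels that the authors made by RMA (background correction, quantile normalization and summary per probe set) from Affymetrix U133 Plus 2.0 arrays. The table keeps 1 probe set for each of 19849 genes. The rule for choosing it, the annotation version and the genome build are not given in the sources used here. Each column bears 1 sample's title. Gene symbols matched all 41 genes, and PXYLP1 of the related lists was matched by its Entrez gene ID.

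The levels of the 6 groups were fitted in 1 limma model over 18 arrays with no covariate (limma 3.58.1, R 4.3.3), and p values were adjusted over all genes by the Benjamini-Hochberg method. The authors' methods name limma. Genes were called above 2-fold with an adjusted p below 0.05, and the study's 5-fold and 1e-05 was an alternative. The genes and lists were chosen with earlier results of these data known. Named genes were HS3ST3B1, members called in at least 1 line, and, of related lists, genes called alike in all 3 lines, and other genes of those lists are marked as named after their values were seen. The 3 arrays per group limit precision, and an exact permutation test of 3 against 3 cannot give a p below 0.1. No arrays were identical. The fit was tested on simulated data. Alternatives were separate fits per line, an intensity trend, robust variances, a filter on dim genes, median centring, the methods' t-test and each array left out. Of the 41 probe sets, 9 match several transcripts by their Affymetrix name.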

Additional observations from a re-analysis of the deposited data

Results flagged for a closer look

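In 18 of the 40 tested genes the change upon EMT differed between at least 1 pair of lines by more than 2-fold at a limma adjusted p below 0.05, which held for 21.5% of all genes. The largest difference of each gene is given on the log2 scale, and its cause was not tested. For the change in NCI-H358 minus that in A549 it was -5.69 for XYLT1, -3.99 for HS6ST2, 1.91 for HS3ST3A1 and 1.09 for HS3ST6. In the same comparison it was -1.81 for SDC4, 3.01 for GPC1 and -1.78 for HSPG2. For HCC827 minus A549 it was 1.17 for B3GALT6, 1.15 for NDST1, -3.25 for HS3ST1 and -1.53 for SULF1. There it was also -1.03 for HPSE, -3.55 for SDC2 and 1.72 for GPC4. For NCI-H358 minus HCC827 it was 2.00 for NDST3, -1.31 for GLCE, -2.15 for SULF2 and -1.21 for SDC3. In SDC2 the arrays of A549 moved up and those of HCC827 moved down without overlap between the states. Such separation, in either direction, held for 52.4% of all genes in A549 and 51.2% in HCC827. The weakest of these differences by adjusted p was that of SULF1 (0.000331), a gene with levels of 3.47 to 6.20 on all arrays. HS3ST6, with 5 of 18 arrays above 5, was called in no line by itself.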

How the results depend on the processing

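The 32 changes called kept their direction in all 480 pairs of a change and a setting. Only leaving out arrays or centring them could have altered a direction, since the other settings keep the difference of group means. Dropping the fold threshold could not lose a call. In 450 the call held, and 24 of the 30 losses came with the thresholds of 5-fold and an adjusted p below 1e-05. The rest were 5 for SULF1 and 1 for B3GALT6 in HCC827, all but 1 of them by falling under 2-fold. With 5-fold and 1e-05, 2, 4 and 2 members were called in A549, HCC827 and NCI-H358. With no fold threshold there were 22, 23 and 26. For differences of the change, 5-fold and 1e-05 gave 3 (A549 against HCC827), 3 (A549 against NCI-H358) and 2 (HCC827 against NCI-H358), and no fold threshold gave 18, 25 and 22. For parental levels, 5-fold and 1e-05 gave 4 (HCC827 against A549), 6 (NCI-H358 against A549) and 2 (NCI-H358 against HCC827), and no fold threshold gave 26, 28 and 25. With 1 array left out in turn, 8 to 9, 13 to 14 and 10 to 12 members were called in the 3 lines. Differences of the change then ranged over 11 to 12, 9 to 11 and 11 to 11, and parental differences over 11 to 11, 13 to 14 and 5 to 6. The first replicate of each parental group bears a number apart from the others in its title, and leaving out these 3 arrays together was added after the data were seen. It kept every count of calls within 1.5 times, as did the trend, robust variances, the filter on dim genes and centring. Separate fits and the methods' t-test did so for the calls within each line, the only counts they were run for. Centring moved the median change of all genes to 0.047, 0.07 and 0.054. No paired analysis was possible because the labels carry no replicate numbers. The low end of the array scale limits folds of genes such as HS3ST3B1, HS3ST3A1 and XYLT1, and any fall of HS6ST2 in A549. It may also limit the changes of SDC2 in A549 and HCC827.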
